A study of Rattus norvegicus with 16 samples.

Results

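The genes that carry signals from G protein-coupled receptors through cyclic AMP (cAMP) were followed in PCCl3 cells, a differentiated follicular cell line of the rat thyroid, after silencing of *Pax8*. A gene was taken when its rat symbol starts with Gna, Gnb, Gng, Rgs, Adcy, Prkac, Prkar, Akap, Creb or Crem, or with Pde and a digit. The rule takes 145 symbols of the RefSeq annotation, of which 85 were found on the array through the RefSeq accession of a probe. A gene was measured when it had a probe well above background in at least 16 of 32 channel readings, as 54 of these 85 genes did (73 probes), among 20378 features in all. The other 31 genes did not reach that number of readings, and a gene detected in wt cells alone cannot reach it.

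In the thyroid follicular cell, thyrotropin (TSH) binds a receptor coupled to the stimulatory G protein. Its alpha subunit switches on adenylyl cyclases, and the cAMP that these make releases the catalytic subunits of protein kinase A (PKA) from the regulatory ones. PKA then phosphorylates CREB family factors, which act at cAMP response elements. Inhibitory alpha subunits, regulators of G protein signalling (RGS proteins) and phosphodiesterases (PDEs), which hydrolyse cAMP or cGMP, limit the signal, while A kinase anchors place PKA within the cell. This cascade is the main route by which TSH drives thyroid growth and differentiated function.

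Total RNA of cells that had received a *Pax8* siRNA (si*Pax8*) was hybridized on 2-colour Agilent rat arrays, on 1 set of arrays next to RNA of wild type (wt) cells and on the other next to RNA of cells given a scrambled siRNA (siScramble). The 16 arrays hold 4 biological replicates per comparison, all in both dye orientations. The siRNAs were given at 10 ng/ml by transient transfection and RNA was isolated 48 hours later; the study's methods describe the remaining condition as lipofectamine-treated, whereas the labels call it wild type. All groups grew in medium with 1 nM TSH, 10 ng/ml somatostatin, 10 nM hydrocortisone, 10 ng/ml glycyl-histidyl-lysine, insulin, transferrin and 5% donor calf serum, so every value was taken under a hormone that stimulates this cascade and another (somatostatin) whose receptors act through inhibitory G proteins. According to the scheme of the design, both comparisons used the same si*Pax8* samples, so they cannot be taken as independent. The labels do not state whether the RNA was shared.

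Values are log2 ratios of si*Pax8* over control intensity, 1 per replicate after averaging the dye swaps, and values below 0 mean less RNA in si*Pax8* than in control cells. In bulk RNA, fewer cells with a transcript and less of it per cell cannot be told apart. The direction was read from the dye labels; the deposited table of log2 ratios has the opposite sign, and the study's text counts more probes up than down against wt cells where the dye labels give more down than up. *Pax8* itself, measured by a single probe, gave -0.84, -0.57, -0.59 and -0.26 against wt cells, a mean of -0.56 ± 0.24 (SD, n = 4; limma adjusted p = 0.000293) or 67.6% of the wt level. Against siScramble cells it gave -0.58, -0.29, -0.12 and -0.01, which did not pass the threshold (-0.25 ± 0.25, SD, n = 4; limma adjusted p = 0.0873). Of 9 measured thyroid follicular genes, *Pax8* among them, 8 were lower against wt and 2 against siScramble cells, beside 14.8% and 1.65% of all features. The part of this shift in the results was not tested. *Calca*, made by the C cells of the thyroid, was measured above background and did not pass (-0.15 against wt cells; limma adjusted p = 0.00822). *Chga*, the other C cell marker looked up, was not measured, with at most 14 of 32 readings above background. The fibroblast and endothelial markers *Col3a1*, *Dcn*, *Pecam1* and *Kdr* were above background in at most 1 of 32 channel readings, while 52% to 60.8% of all spots were well above it per array and channel.

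Against wt cells, 14 of the 54 genes were lower in si*Pax8* cells and 1 was higher (limma, adjusted p below 0.005 over all features). Of all features tested, 14.8% were lower and 12.4% higher in that comparison, beside 25.9% and 1.85% of the genes of the cascade. Their median log2 ratio was -0.06, beside -0.01 over all features. The largest falls were those of *Akap5*, *Gng8*, *Crem* and *Pde2a*, and the only rise was that of *Akap8l*. Each of the 14 lower genes was below 0 in all 4 replicates and on all 4 slides, which each held 2 arrays of either comparison. As the genes were called on these replicates and the slides regroup the same arrays, this adds no support.

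Against siScramble cells, *Akap5* and *Gng8* were lower and *Pde1a* was higher, 3 of 54 genes. Of all features, 1.65% were lower and 2.4% higher in that comparison. The median over the genes of the cascade was 0.00, and that over all features -0.01. *Akap5* and *Gng8* thus passed the threshold in the same direction in both comparisons, which by the scheme of the design share their si*Pax8* samples. When replicate 2 or replicate 3 was left out, none of these 3 calls held, with 0 genes higher and 0 lower.

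**Figure D1:**
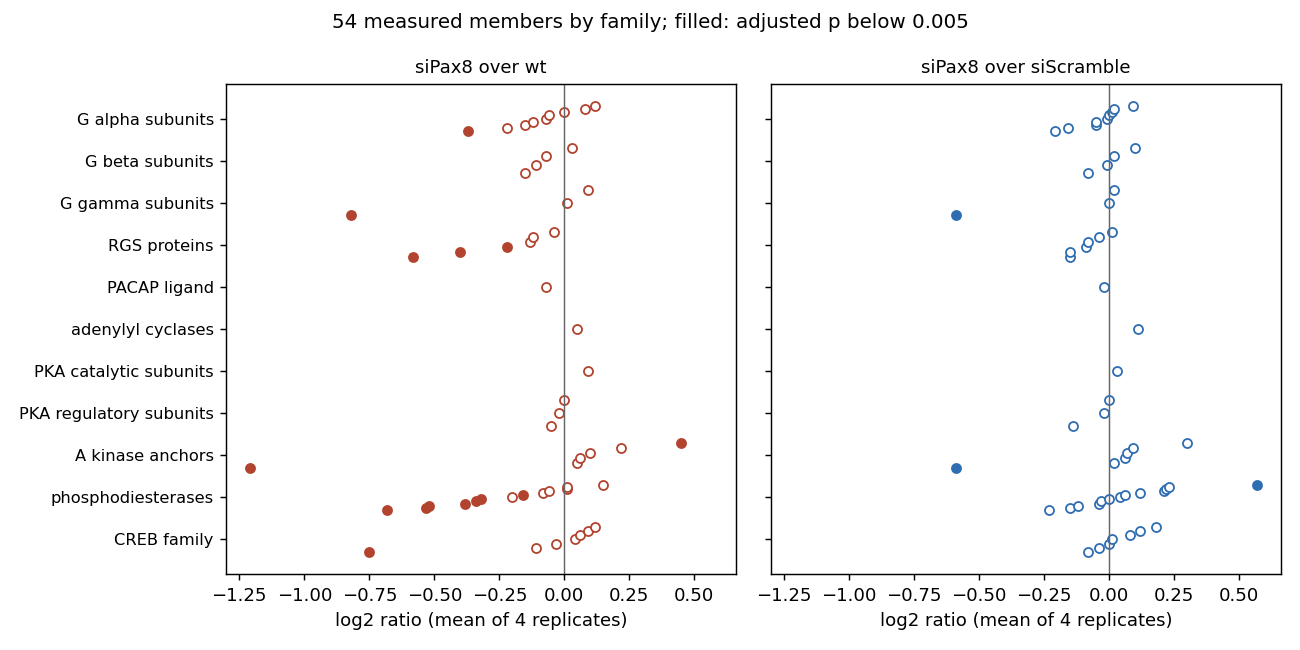
Mean log2 ratio of each of the 54 measured genes, by family, against wt (left) and siScramble cells (right), on the same horizontal axis. Each circle is 1 gene (mean of 4 replicates) and filled circles passed an adjusted p of 0.005: 15 on the left, of which 14 lie below 0, and 3 on the right.

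The core of the G protein trimer showed small ratios. *Gnas*, which encodes the stimulatory alpha subunit, gave -0.35, -0.04, -0.07 and -0.03 with wt and -0.05, 0.01, 0.04 and 0.34 with siScramble cells as the control. A single replicate stood apart in each set, the first against wt and the fourth against siScramble cells, and neither mean passed the threshold (-0.12 ± 0.15 and 0.09 ± 0.17, SD, n = 4 each; adjusted p = 0.088 and 0.403 by limma). The inhibitory subunit gene *Gnai2* gave -0.42, -0.13, -0.17 and -0.14 against wt cells, all below 0, and fell short of the threshold (-0.22 ± 0.14, SD, n = 4; limma adjusted p = 0.00658). It passed with si*Pax8* in Cy5 only (limma adjusted p = 0.00137) and with a dye term (adjusted p = 0.00169). It also passed when the 8 arrays were fitted with the replicate number as a block (limma adjusted p = 0.0017). The correlation within blocks was below 0 (-0.148 against wt cells), so the block did not widen the errors for dye swaps of a replicate. Calls, here and below, are those of the main fit, and passes gained with this block or another alternative are not counted. The other inhibitory subunit gene of the core, *Gnai3*, had means of 0.12 and 0.00, with adjusted p of 0.124 and 0.995 in limma.

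Among the alpha subunits that couple receptors to phospholipase C, *Gna11* was lower against wt cells. Its replicates were -0.44, -0.34, -0.37 and -0.35, a mean of -0.37 ± 0.05 (SD, n = 4; limma adjusted p = 3.27e-05), and those against siScramble cells were -0.21, -0.30, -0.11 and -0.03 (adjusted p = 0.0592). The size depended on the dye, with -0.16 for si*Pax8* in Cy5 and -0.59 in Cy3, and the call was lost with the slide as a block (limma adjusted p = 0.01). *Gnaq*, the close relative of *Gna11*, was at 0.00 ± 0.05 and -0.01 ± 0.11 (SD, n = 4 each). *Gna14*, of the same subfamily, had the lowest ratio of the alpha subunits against siScramble cells, -0.19, -0.18, -0.23 and -0.25 in the replicates, just outside the threshold (limma adjusted p = 0.00509, or 0.00181 with the replicate block), and -0.06 ± 0.04 (SD, n = 4) against wt cells. The *Gna14* ratio to siScramble cells passed in 5 of 16 alternatives. Among them were no filter on dim probes (limma adjusted p = 0.0035), a stricter filter (adjusted p = 0.00315) and both comparisons in 1 fit (adjusted p = 0.000565). The 2 probes of the gene gave -0.13 and -0.30 against siScramble cells.

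The beta subunit *Gnb1*, which had 5 probes, gave -0.18, -0.09, -0.17 and -0.15 against wt cells. That mean of -0.15 ± 0.04 (SD, n = 4; limma adjusted p = 0.00633, or 0.00499 with the replicate block) was the first outside the threshold, next to *Pde4b* as the last inside it. The *Gnb1* mean also passed without a filter on dim probes (limma adjusted p = 0.00455) and with a dye term (adjusted p = 0.00213). Its 5 probes lay between -0.17 and -0.12. *Gnb2* gave -0.25 in replicate 1 and -0.03, 0.00 and -0.01 in the others, and its mean of -0.07 did not pass (limma adjusted p = 0.236). None of the 4 beta subunits passed in either comparison.

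The gamma subunit *Gng8* (probe A_42_P529550, NM_139185) had the second largest fall of all members against wt cells. Its replicates were -0.83, -0.84, -0.81 and -0.78, a narrow set with a mean of -0.82 ± 0.03 (SD, n = 4; limma adjusted p = 2.6e-07), or 56.8% of the wt level. Against siScramble cells it gave -0.44, -0.67, -0.51 and -0.72 (-0.59 ± 0.13, SD, n = 4; limma adjusted p = 0.000545), 66.6% of the siScramble level. The 2 sets of replicates did not overlap, but their difference of -0.23 did not pass the threshold (limma adjusted p = 0.0234). The other measured gamma subunits, *Gng5* and *Gng10*, had means between 0.00 and 0.09.

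RGS proteins speed up GTP hydrolysis by alpha subunits. All 6 measured genes had means below 0 against wt cells, from -0.58 to -0.04, and 3 of them passed the threshold, beside 14.8% of all features that were lower. *Rgs2*, which acts on the subunits that signal to phospholipase C and can also dampen adenylyl cyclase, gave -0.43, -0.55, -0.65 and -0.67, all 4 well below 0 (-0.58 ± 0.11, SD, n = 4; limma adjusted p = 1.22e-05). Against siScramble cells its replicates spread from -0.41 to 0.05 and did not pass (-0.15 ± 0.20, SD, n = 4; limma adjusted p = 0.205). The difference of -0.43 passed the threshold only when same-numbered replicates were paired (limma adjusted p = 0.00835 without and 0.00031 with pairs). *Rgs9*, best known from photoreceptors and striatum, gave -0.41, -0.44, -0.38 and -0.39 against wt and -0.16, -0.14, -0.18 and -0.11 against siScramble cells, 2 sets that did not overlap. Only the first passed (-0.40 ± 0.02 and -0.15 ± 0.03, SD, n = 4 each; adjusted p = 1.53e-05 and 0.0184 by limma). The other passed in 3 of 16 alternatives, with the replicate block among them. With the signals processed by Agilent's software the *Rgs9* ratio to wt was -0.99. *Rgs3* was lower by a smaller step, with replicates from -0.31 to -0.12 and a mean of -0.22 ± 0.08 (SD, n = 4; limma adjusted p = 0.00175), a call lost without replicate 3 (adjusted p = 0.00902) or without replicate 4 (adjusted p = 0.0123). *Rgs12*, *Rgs14* and *Rgs19* had means from -0.13 to -0.04 and did not pass. The remaining 8 RGS genes on the array, among them *Rgs4* and *Rgs16*, did not reach the number of readings required.

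The enzymes at the centre of the cascade did not pass the threshold. *Adcy6*, a calcium-inhibited adenylyl cyclase, was the single cyclase of 7 on the array that reached the number of readings required, and its replicates were 0.08, 0.09, 0.02 and 0.04 with wt cells as control and 0.11, 0.11, 0.05 and 0.17 with siScramble cells. All 8 values were above 0, with means of 0.05 ± 0.03 and 0.11 ± 0.05 (SD, n = 4 each; adjusted p = 0.212 and 0.0614 by limma). Its brighter probe alone gave 0.10 and 0.20. *Adcy3* was above background in 0 of 32 readings. *Adcyap1*, which encodes PACAP, a peptide ligand of receptors coupled to the stimulatory G protein and takes its symbol from adenylyl cyclase, had means of -0.07 and -0.02.

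For PKA, the catalytic subunit gene *Prkacb* gave 0.06, 0.08, 0.08 and 0.14 against wt cells, a small but even shift that did not pass (0.09 ± 0.03, SD, n = 4; limma adjusted p = 0.0457), and 0.03 ± 0.08 (SD, n = 4) against siScramble cells. Its probes differed, at 0.15 and 0.04 against wt cells, and the second was above background in 24 of 32 readings. *Prkar1a*, the regulatory subunit whose loss frees PKA activity, was at -0.02 in both comparisons, with SDs of 0.07 and 0.06 (n = 4 each). *Prkar1b* and *Prkar2a* had means of -0.05 and 0.00 against wt cells. *Prkar2a* was at -0.20, -0.12, -0.21 and -0.01 against siScramble cells (-0.14 ± 0.09, SD, n = 4; limma adjusted p = 0.065). *Prkaca* and *Prkar2b* were not matched to a probe and were not analysed here.

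A kinase anchors moved in opposite directions. *Akap5* (probe A_44_P238424, NM_133515), which tethers PKA, protein kinase C and calcineurin at the plasma membrane, had the largest fall of all 54 genes against wt cells. It gave -1.06, -1.39, -1.15 and -1.25 against wt cells, or 43.1% of the wt level (-1.21 ± 0.15, SD, n = 4; limma adjusted p = 3.89e-07). Against siScramble cells it gave -0.43, -0.70, -0.53 and -0.70, or 66.3% of the siScramble level (-0.59 ± 0.14, SD, n = 4; limma adjusted p = 0.000576). Every replicate against wt lay below every replicate against siScramble cells, and the difference of -0.62 passed the threshold (limma adjusted p = 0.000537). *Akap8l*, a nuclear anchor-like protein, gave 0.47, 0.36, 0.53 and 0.44 against wt cells (0.45 ± 0.07, SD, n = 4; limma adjusted p = 1.89e-05) and 0.20, 0.26, 0.50 and 0.24 against siScramble cells (0.30 ± 0.13, SD, n = 4; limma adjusted p = 0.00855, or 0.0011 with the replicate block). The ratio to siScramble cells passed in 4 of 16 alternatives. Besides the block, these were a dye term (limma adjusted p = 0.00104), si*Pax8* in Cy3 only (adjusted p = 0.000637) and both comparisons in 1 fit (adjusted p = 0.00112). All 8 values of *Akap8l* were above 0, and its 2 probes gave 0.50 and 0.40 against wt cells. *Akap1*, the mitochondrial anchor, had replicates of 0.07 to 0.47 relative to wt and of -0.10 to 0.26 relative to siScramble cells and did not pass (means 0.22 and 0.06, limma adjusted p = 0.017 and 0.589). *Akap3*, *Akap7* and *Akap9* had means from 0.05 to 0.10 against wt cells. *Akap12*, another plasma membrane anchor, did not reach the number of readings required, with 13 of 32. Of its 2 probes, the brighter was well above background on 8 of 8 arrays in wt but on 1 of 8 in si*Pax8* cells. That probe alone had a ratio to wt of -0.45 ± 0.10 (SD, n = 4; limma adjusted p = 4.58e-05 in the fit of single probes, without the requirement), beside -0.04 against siScramble cells. The other probe was above background in 0 of 32 readings and gave -0.02 against wt cells.

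**Figure D2:**
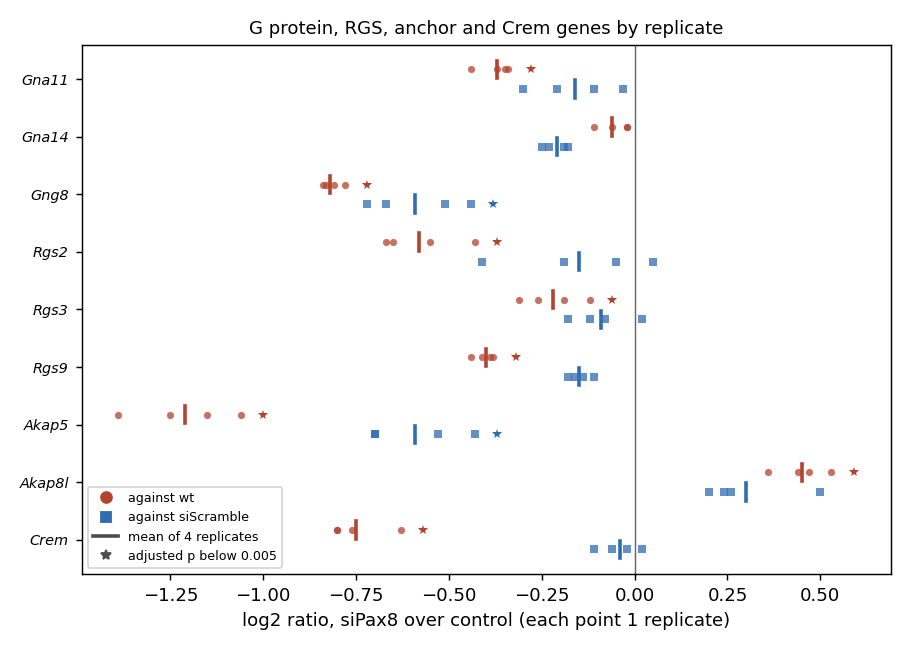
Log2 ratio of each replicate for 9 genes of the G protein, RGS, anchor and CREB families, against wt (circles) and siScramble cells (squares). Vertical bars are means of 4 replicates and stars mark an adjusted p below 0.005. *Akap5* and *Gng8* carry a star in both comparisons, and *Crem* lies between -0.80 and -0.63 against wt but between -0.11 and 0.02 against siScramble cells.

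Phosphodiesterases were the family with the most changes. Of 13 measured genes, which include *Pde4dip*, a scaffold that binds a phosphodiesterase, 7 were lower and 0 higher against wt cells, 53.8% called lower beside 14.8% of all features. Their median was -0.20. Against siScramble cells the median was 0.04 and *Pde1a* alone passed, as a rise. The lower genes hydrolyse different substrates: *Pde4b*, *Pde4d* and *Pde8a* are specific for cAMP, *Pde9a* for cGMP, and *Pde2a*, *Pde3b* and *Pde10a* accept both. With si*Pax8* in Cy3 alone, or without replicate 3, the lower genes numbered 4 in place of 7.

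*Pde2a* (probe A_44_P226881, NM_031079), the phosphodiesterase that cGMP stimulates, gave -0.73, -0.69, -0.58 and -0.70 against wt cells. This was the largest fall of the family, to 62.6% of the wt level (-0.68 ± 0.07, SD, n = 4; limma adjusted p = 1.53e-06), whereas the values against siScramble cells were -0.12, -0.29, -0.26 and -0.25 and did not pass (-0.23 ± 0.07, SD, n = 4; limma adjusted p = 0.00752). *Pde9a* gave -0.41, -0.61, -0.51 and -0.59 against wt cells (-0.53 ± 0.09, SD, n = 4; limma adjusted p = 1.26e-05) and -0.10, -0.15, -0.12 and -0.24 against siScramble cells (-0.15 ± 0.06; adjusted p = 0.0295). Both genes were below 0 in all 8 values, and neither passed against siScramble cells.

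*Pde10a*, *Pde4d* and *Pde4b* had ratios of opposite sign in the 2 comparisons. *Pde10a* gave -0.67, -0.55, -0.47 and -0.38 against wt and 0.06, 0.14, 0.25 and 0.38 against siScramble cells, with means of -0.52 ± 0.13 and 0.21 ± 0.14 (SD, n = 4 each; adjusted p = 3.45e-05 and 0.0363 by limma). *Pde4d* gave -0.28, -0.51, -0.41 and -0.15 against wt and 0.12, 0.08, 0.33 and 0.37 against siScramble cells, with means of -0.34 ± 0.16 and 0.23 ± 0.15 (SD, n = 4 each; adjusted p = 0.000942 and 0.0309 by limma). All 4 values of each gene were below 0 against wt and above 0 against siScramble cells, and the same held for *Pde4b*, at -0.16, -0.17, -0.19 and -0.11 against 0.14, 0.24, 0.34 and 0.17. The *Pde4b* fall (-0.16 ± 0.03, SD, n = 4; limma adjusted p = 0.00388) was the smallest called and lost its call when any single replicate was left out. *Pde4d* lost its own without replicate 2 (adjusted p = 0.00639) or replicate 3 (adjusted p = 0.00713), and its 2 probes gave -0.42 and -0.25 against wt cells. None of the 3 positive means against siScramble cells passed the threshold in the main fit. That of *Pde4b* (0.22) passed with the replicate block (adjusted p = 0.000988), with a dye term (adjusted p = 0.000753) and with both comparisons in 1 fit (adjusted p = 0.00147). That of *Pde4d* passed with a dye term (adjusted p = 0.00428). The block and the dye term were fitted to single arrays, where dye swaps of a replicate enter as separate values, so those passes are not counted as calls.

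*Pde1a*, a phosphodiesterase activated by calcium and calmodulin, was the single gene of the cascade that was higher against siScramble cells. Its replicates there were 0.37, 0.49, 0.62 and 0.79, or 148% of the siScramble level (0.57 ± 0.18, SD, n = 4; limma adjusted p = 0.00159), and those against wt cells were 0.13, -0.19, -0.56 and -0.17 (-0.20 ± 0.28, SD, n = 4; limma adjusted p = 0.09). The call was lost in 4 of 16 alternatives. These were without replicate 2 (adjusted p = 0.0101), without replicate 3 (adjusted p = 0.0154), with Agilent's processed signals (adjusted p = 0.00697) and with si*Pax8* in Cy5 only (adjusted p = 0.0128). *Pde3b*, which cGMP inhibits, gave -0.24, -0.40, -0.41 and -0.46 against wt cells (-0.38 ± 0.09, SD, n = 4; limma adjusted p = 9.48e-05), and *Pde8a*, an enzyme of high affinity for cAMP, gave -0.44, -0.14, -0.36 and -0.34 (-0.32 ± 0.13, SD, n = 4; limma adjusted p = 0.000672). Against siScramble cells they had means of -0.12 and -0.04, without passing. *Pde8a* lost its call without replicate 3 (adjusted p = 0.00535). *Pde4a* was the only measured cAMP-specific enzyme with a positive mean against wt cells, at 0.15 ± 0.07 (SD, n = 4; limma adjusted p = 0.00937). *Pde1b*, *Pde5a*, *Pde7b* and *Pde4dip* had means between -0.08 and 0.01.

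**Figure D3:**
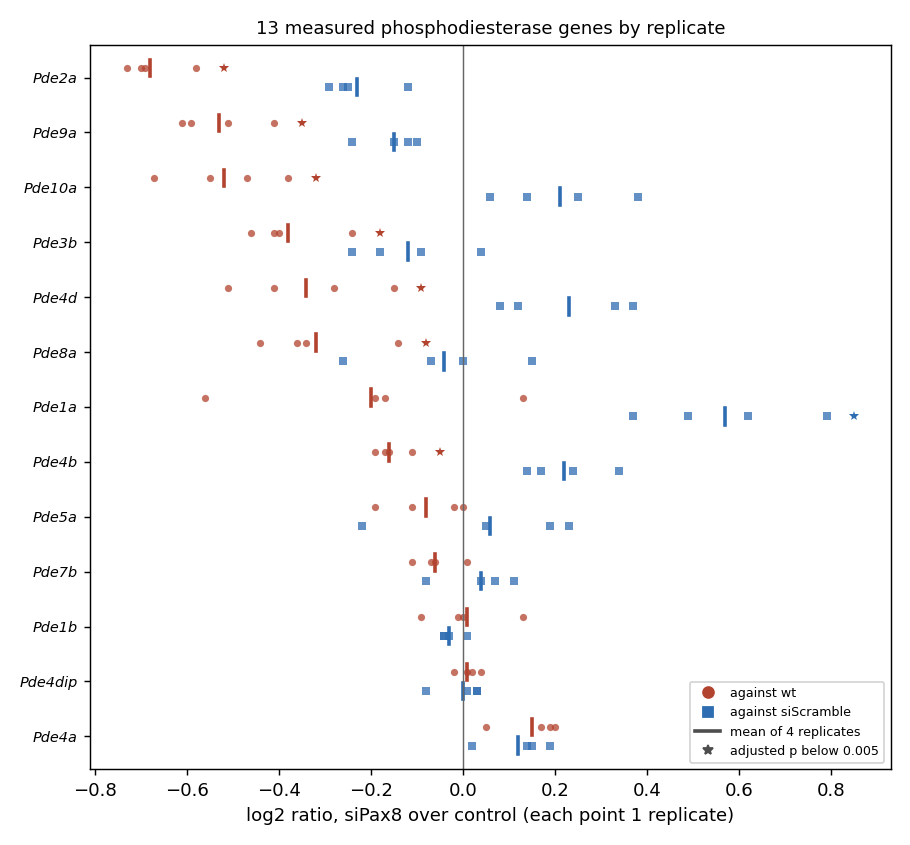
Log2 ratio of each replicate for the 13 measured genes with a Pde symbol, ordered by their mean against wt cells. Circles are ratios to wt and squares ratios to siScramble cells, bars are means of 4 replicates and stars mark an adjusted p below 0.005: 7 genes carry a star to the left of 0 against wt cells, and *Pde1a* carries the only star against siScramble cells.

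In the CREB family, *Crem* was lower against wt cells and the other 6 genes were not called. *Crem* (probe A_44_P372529, NM_017334) encodes activators and repressors, among them the inducible repressor ICER, which is made from an internal start that cAMP switches on. It gave -0.63, -0.76, -0.80 and -0.80 against wt cells, or 59.6% of the wt level (-0.75 ± 0.08, SD, n = 4; limma adjusted p = 1.3e-06). Against siScramble cells it gave 0.02, -0.11, -0.06 and -0.02, a mean of -0.04 ± 0.05 (SD, n = 4; limma adjusted p = 0.475). The 2 sets lay far apart, and the difference of -0.71 passed the threshold (limma adjusted p = 1.08e-05). Which *Crem* transcripts the probe detects was not determined here. *Creb1*, the factor that PKA phosphorylates, was at 0.06 ± 0.05 and -0.08 ± 0.09 (SD, n = 4 each), its coactivator *Crebbp* at 0.09 and 0.08, and *Crebl2* at 0.04 ± 0.04 and 0.18 ± 0.04 (SD, n = 4 each; adjusted p = 0.334 and 0.0115 by limma).

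Promoter windows from RefSeq (build GRCr8, 250 bases before to 50 after an annotated start) were available for 44 of the 54 genes. They were searched on both strands for the cAMP response element TGACGTCA and for GCGTGAC, a core sequence known from sites of Pax proteins. The first was found in 1.83% of all windows and in 3 of the 61 windows of these genes (4.92%), those of *Crem* and *Gnao1*. The second was found in 2.0% of all windows and in 1 of the 61 (1.64%), that of *Rgs2*. A shorter core, TGACG, which lies within the full element, was found in 21.2% of all windows and in 22 of the 61 windows of these genes (36.1%). The windows of *Crem* and *Rgs2* that hold a match are shown because both genes were lower against wt cells, with the matches in capitals. Of the 3 *Crem* windows, the first one shown had its element 56 bases before the start, and the other had elements 35 bases before and 39 bases after it. The *Rgs2* match lay 158 bases before the start. These matches are descriptions of the letters, and no binding was measured in these files.
*Crem*, chr17:58984547-58984846, plus strand: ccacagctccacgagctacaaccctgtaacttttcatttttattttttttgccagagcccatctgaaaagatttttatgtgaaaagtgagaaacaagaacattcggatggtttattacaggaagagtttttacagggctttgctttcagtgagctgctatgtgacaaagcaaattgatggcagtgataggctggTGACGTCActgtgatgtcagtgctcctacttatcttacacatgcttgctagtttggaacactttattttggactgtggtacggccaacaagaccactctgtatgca
*Crem*, chr17:58985240-58985539, plus strand: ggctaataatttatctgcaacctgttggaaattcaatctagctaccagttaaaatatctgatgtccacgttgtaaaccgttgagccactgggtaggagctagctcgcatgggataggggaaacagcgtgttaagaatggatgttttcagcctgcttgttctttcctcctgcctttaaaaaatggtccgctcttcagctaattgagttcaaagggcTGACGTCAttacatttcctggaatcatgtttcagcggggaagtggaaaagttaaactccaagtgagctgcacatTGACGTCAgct
*Rgs2*, chr13:58352617-58352916, minus strand: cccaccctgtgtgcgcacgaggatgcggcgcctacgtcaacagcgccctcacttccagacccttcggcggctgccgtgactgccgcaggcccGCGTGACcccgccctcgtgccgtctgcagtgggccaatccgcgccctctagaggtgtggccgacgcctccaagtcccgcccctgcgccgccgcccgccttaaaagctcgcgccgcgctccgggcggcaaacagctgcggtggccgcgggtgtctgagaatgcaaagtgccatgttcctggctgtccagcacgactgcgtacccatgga

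The difference between the comparisons was tested directly, since a call in one and not in the other does not show that they differ. It was the ratio to wt minus the ratio to siScramble cells. If the same si*Pax8* samples were on both sides, as the scheme of the design gives, it stands for the siScramble against the wt level. By limma the difference was below 0 for 9 of the 54 genes and above 0 for none. Of all features 3.37% had a difference below and 2.99% above 0. An unadjusted p below 0.05 in that fit was found for 26 of the 54 genes, beside 6891 of all 20378 features. The 9 genes were *Akap5*, *Crem*, *Rgs9* and 6 phosphodiesterases, *Pde1a*, *Pde2a*, *Pde4b*, *Pde4d*, *Pde9a* and *Pde10a*. For each of them, every replicate against siScramble lay above every replicate against wt cells. As the 9 genes were chosen by the difference of these same values, this adds no support. The differences ranged from -0.77 (*Pde1a*; limma adjusted p = 0.00215) to -0.25 (*Rgs9*; limma adjusted p = 0.00154). Treating same-numbered replicates as pairs called 10 genes, with *Rgs2* added, and leaving out replicate 2 or replicate 3 gave 4 and 3 genes.

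The separate channels are given for these 9 genes as a description. Their intensities were normalized by loess and then by quantiles of the average of both channels. The ratios instead used quantiles of all channels, so differences between these intensities need not equal the ratios. *Crem* stood at a log2 intensity of 10.00 in wt, 9.32 in siScramble and 9.25 and 9.31 in si*Pax8* cells, so the siScramble level was next to that of si*Pax8* cells. For *Pde10a* the intensities were 8.90 in wt, 8.20 in siScramble and 8.38 and 8.41 in si*Pax8* cells, and for *Pde1a* 8.94, 8.27, 8.76 and 8.81, with siScramble cells the lowest. *Akap5* had the order 10.89 in wt, 10.27 in siScramble and 9.68 and 9.71 in si*Pax8* cells. In all 9 genes wt cells had the highest intensity, and that wt lies above siScramble cells follows from how the genes were chosen. Wt and siScramble RNA were never hybridized together, so these orders rest on normalization across arrays.

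**Figure D4:**
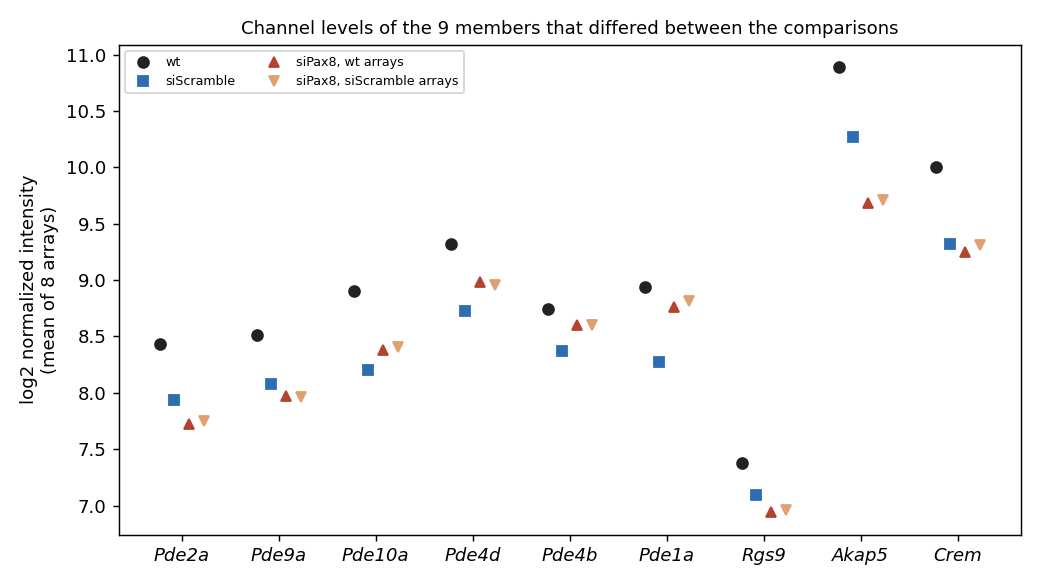
Mean log2 normalized intensity of the 9 genes whose ratios differed between the comparisons, in wt, siScramble and si*Pax8* channels (8 arrays each, with si*Pax8* shown for both sets of arrays). Wt cells (black circles) are highest for every gene, and siScramble cells (blue squares) lie below si*Pax8* cells for *Pde10a*, *Pde4d*, *Pde4b* and *Pde1a*. Intensities of different genes come from different probes and cannot be compared.

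Other genes of the pathway were taken from lists outside the naming rule. Of 15 receptors that act through G proteins in thyroid cells, 5 were measured. The adenosine receptor *Adora1* (-0.17) and the nucleotide receptor *P2ry2* were lower against wt cells, and against siScramble cells *P2ry2* was lower and the lysophosphatidic acid receptor *Lpar1* higher (0.35 ± 0.07, SD, n = 4; limma adjusted p = 0.00139). The *Adora1* call was lost in 11 of 16 alternatives, with any replicate left out, with the replicate block (adjusted p = 0.00942) and with si*Pax8* in Cy3 only (-0.03) among them. The *Lpar1* call was lost in 6 of 16, without replicate 1, 2 or 3 among them (adjusted p = 0.00668, 0.0125 and 0.0127). The TSH receptor gene *Tshr* gave -0.18, -0.18, -0.13 and -0.06 against wt and -0.10, -0.19, -0.23 and -0.09 against siScramble cells, all below 0 but short of the threshold (-0.13 ± 0.06 and -0.15 ± 0.07, SD, n = 4 each; adjusted p = 0.0129 and 0.03 by limma). *P2ry2* had means of -0.51 ± 0.10 and -0.31 ± 0.05 (SD, n = 4 each; adjusted p = 2.04e-05 and 0.00155 by limma), the second call being lost when any replicate was left out. Among 6 measured receptor kinases and arrestins, *Grk5*, which phosphorylates active receptors, was higher in both, with 0.59, 0.69, 0.65 and 0.70 against wt and 0.43, 0.46, 0.45 and 0.55 against siScramble cells (0.66 ± 0.05 and 0.47 ± 0.06, SD, n = 4 each; adjusted p = 1.24e-06 and 0.0003 by limma). *Grk2*, of the same family, was lower against wt cells (-0.19), a call lost in 9 of 16 alternatives, with any replicate left out among them (adjusted p = 0.00615 to 0.0189). Of 4 measured G protein helpers, *Gpsm1* (-0.18) and *Gpsm3* (-0.21) were lower against wt cells. These calls were lost in 7 and 9 of 16 alternatives, both without replicate 2, 3 or 4, and *Gpsm1* also with the replicate block (adjusted p = 0.0087) and with si*Pax8* in Cy3 only (-0.03). None of 5 measured other cAMP effectors and PKA inhibitors passed in either comparison.

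At the nuclear end, 6 of 9 measured genes induced through cAMP response elements were higher against wt cells and 1, *Dusp1*, was lower. The 9 genes had a median of 0.32, beside -0.01 over all features, of which 12.4% were higher and 14.8% lower. In the alternatives the higher genes numbered 4 to 6. The rise of *Ppargc1a* (0.28) was lost in 6 of 16 alternatives and the fall of *Dusp1* (-0.24) in 8 of 16. Against siScramble cells *Nr4a2* and *Per1* were higher and *Fos* was lower, with a median of 0.13, and all 3 calls were lost when any replicate was left out. *Per1* was at 0.31 ± 0.07 there (SD, n = 4; limma adjusted p = 0.00204). These genes also answer to other stimuli. *Egr1* gave 1.41, 1.17, 1.33 and 1.35 and *Fos* 0.84, 0.93, 0.83 and 0.84 against wt cells, the largest rises of the list (means 1.31 ± 0.10 and 0.86 ± 0.05, SD, n = 4 each; adjusted p = 1.08e-07 and 2.53e-07 by limma). Against siScramble cells their means were -0.05 ± 0.11 and -0.22 ± 0.03 (SD, n = 4 each; adjusted p = 0.518 and 0.00454 by limma). The differences between the comparisons, 1.36 for *Egr1*, 1.08 for *Fos* and 0.57 for *Nr4a1*, passed the threshold (limma adjusted p = 5.67e-07, 2.53e-07 and 1.64e-05). *Nr4a2* was higher in both comparisons (0.32 ± 0.07 and 0.27 ± 0.03, SD, n = 4 each; adjusted p = 0.000157 and 0.00187 by limma). *Sik1*, a cAMP-induced kinase that restrains CREB coactivators and 1 of 2 measured genes of that group, moved the other way, at -0.91, -1.16, -0.90 and -1.13 against wt cells (-1.03 ± 0.14, SD, n = 4; limma adjusted p = 9.14e-07) and from -0.57 to 0.01 against siScramble cells (-0.34 ± 0.27, SD, n = 4; limma adjusted p = 0.0425). *Crem* and *Sik1* were thus lower where *Egr1*, *Fos* and *Nr4a1* (0.76 ± 0.05, SD, n = 4; limma adjusted p = 5.61e-07) were higher.

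**Figure D5:**
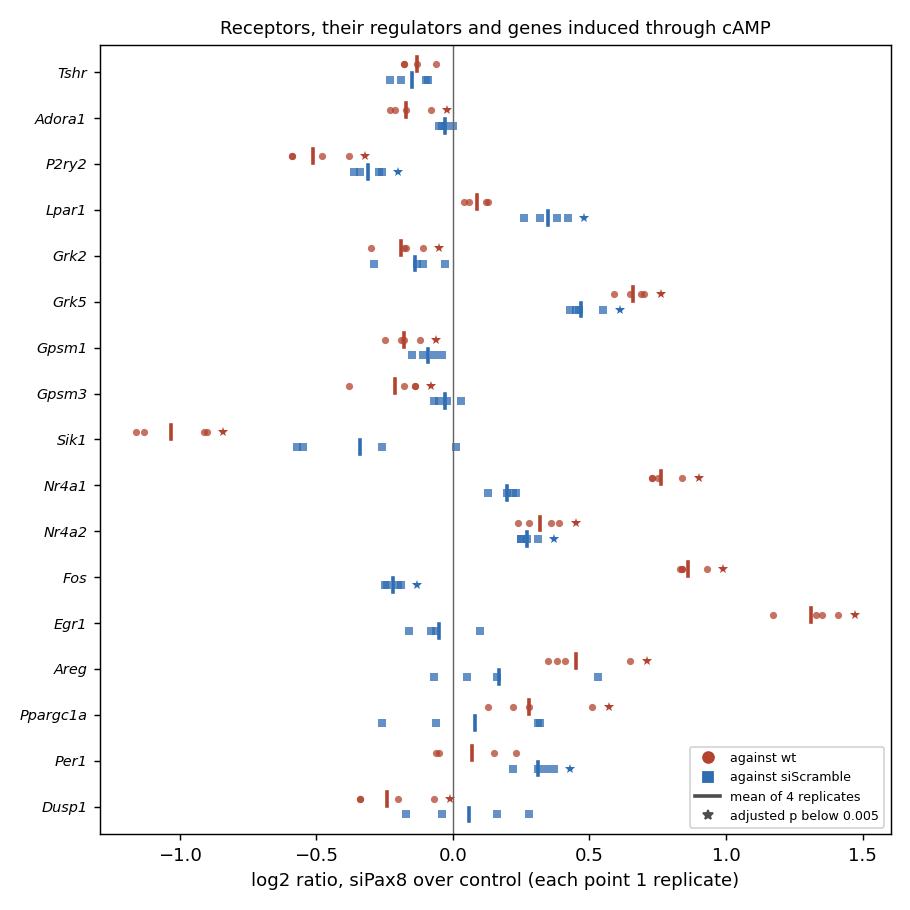
Log2 ratio of each replicate for 17 other genes of the pathway, from receptors (top) to genes induced through cAMP (bottom), against wt (circles) and siScramble cells (squares). Bars are means of 4 replicates and stars an adjusted p below 0.005. *Egr1*, *Fos* and *Nr4a1* lie to the right of 0.7 against wt but below 0.25 against siScramble cells, whereas *Sik1* lies to the left.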

How the data were processed

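The arrays were 2-colour Agilent rat whole genome arrays. The authors deposited, for each of 16 arrays, scanner intensities of every spot (mean signal and median local background in Cy3 and Cy5, not normalized), signals that Agilent's software had background-corrected and dye-normalized, and a joint matrix of log2 ratios after normalization. Per the file headers the scanner software was Feature Extraction 10.1.1.1, whereas the methods name an earlier version. The deposited log2 ratios correlated between -0.999 and -0.993 with the ratios of si*Pax8* over control computed here, so their sign was turned where they were used; their columns have medians from -0.000112 to 0.0068.

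Groups, dyes and replicate numbers came from the sample labels. Mean signals were corrected with normexp (offset 50), normalized by loess within arrays (control and outlier spots at weight 0) and by quantiles of all channels with limma 3.58.1 under R 4.3.3 (files were read with data.table, release 1.17.8, and statmod 1.5.0 was used for blocks). The offset shrinks the ratios of dim probes. A probe was used when it was well above background in at least 16 of 32 channel readings, which left 23198 of 41012 probes. Spots of a probe, dye-swapped arrays of a replicate and probes of a gene symbol were averaged, and unnamed probes were kept by accession, giving 20378 features. RefSeq transcripts of the assembly GRCr8 named 10768 probes, and RefSeq starts on that assembly gave the promoter windows. None of the 73 probes used was saturated. Of the 54 genes, 39 had 1 used probe, 13 had 2, 1 had 3 and 1 had 5. The number of arrays limits the precision, and p-values of the main fits measure the spread between the 4 replicates. With a dye term or the replicate block, single arrays were fitted, so dye swaps of a replicate entered as separate values. The correlation within replicate blocks was -0.148 against wt and -0.12 against siScramble cells, so the block did not widen the errors. A pass gained only in such a fit is not counted as a call.

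Each comparison was fitted with lmFit and eBayes to 4 values per feature, two-sided, with Benjamini-Hochberg adjustment over all features and the study's threshold of 0.005. The difference between comparisons was fitted to the 8 values. The fits were tested on simulated data. The dye swaps were paired by the replicate numbers of the labels. Between dye orientations, deviations of same-numbered arrays from their group mean correlated with 0.12 to 0.59. For replicate 2 against wt cells, the 0.12 was below the highest correlation with another number (0.19). Between comparisons the same-number correlations were 0.05 to 0.56. Those of replicates 2 and 3 (0.17 and 0.05) were below the highest with another number (0.41). Pairing between comparisons was therefore used as an alternative only. The text names the genes past the threshold, the 10 with the largest ratios in each comparison and the core of the TSH to cAMP cascade, 30 in all, and gives the rest by ranges. The members, the lists and this rule were chosen with earlier results of these data known. Alternatives were Agilent's processed signals, loess alone, the deposited table, filters on dim probes, a fit of single probes, single dye orientations, a dye term, the replicate number or slide as a block, both comparisons in one fit, and leaving out each replicate.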

Additional observations from a re-analysis of the deposited data

Results flagged for a closer look

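In 3 of 60 sets of 4 replicates a single replicate stood far from the other 3, which chance gives in about 1 of 20 sets. All 3 were replicate 1 against wt cells and concerned G protein subunits: *Gnai2* at -0.42, with the others between -0.17 and -0.13, *Gnas* at -0.35, with the others between -0.07 and -0.03, and *Gnb2* at -0.25, with the others between -0.03 and 0.00.

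The ratio to wt cells was lower than the ratio to siScramble cells, by a test of the difference itself (limma, adjusted p below 0.005), for *Pde1a* (-0.77), *Pde10a* (-0.72), *Crem* (-0.71), *Akap5* (-0.62), *Pde4d* (-0.56), *Pde2a* (-0.45), *Pde4b* (-0.38), *Pde9a* (-0.38) and *Rgs9* (-0.25). Of these, *Crem* and *Pde10a* kept the call under all 15 alternatives that could be fitted.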

How the results depend on the processing

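Against wt cells the number of lower genes stayed between 10 and 18 (14 in the main analysis). The number of higher genes, 1 in the main analysis, was 4 with Agilent's processed signals, 3 with si*Pax8* in Cy5 only, 2 with a dye term and 1 to 2 when a replicate was left out. The median against wt cells was -0.11 with processed signals, -0.03 without a filter on dim probes and in the fit of single probes, -0.05 with si*Pax8* in Cy3 only, and -0.07 to -0.05 when a replicate was left out. Against siScramble cells (1 higher, 2 lower) the numbers were 0 higher with processed signals, 5 and 4 with si*Pax8* in Cy3 only, 5 and 5 with a dye term, 3 and 4 with the replicate block, 4 and 5 when 1 fit held both comparisons, and 0 to 1 and 0 to 2 when a replicate was left out. Genes with a difference below 0 between the comparisons (9) numbered 5 with si*Pax8* in Cy3 only and 3 to 8 when a replicate was left out, and 1 gene had a difference above 0 with a dye term. Lower phosphodiesterases (7 against wt, 6 in the difference) numbered 4 and 3 with si*Pax8* in Cy3 only, and 4 to 6 and 2 to 6 when a replicate was left out. With the dye swaps of a replicate as a replicate block, 16 genes were lower against wt cells. No called ratio changed its direction in any alternative. The causes were not tested. Signal limits the values: 31 of 85 genes on the array did not reach 16 of 32 readings above background, and without that filter 16 genes were lower against wt cells.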
